A study of Mus musculus with 22 samples.

Results

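The genes described are the nuclear-encoded subunits of the mitochondrial respiratory chain and the assembly factors that share their symbols. They were taken as the protein-coding genes whose symbol starts with Nduf, Uqcr, Sdh followed by a, b, c or d, or Cox followed by 4 to 8 and a letter, with a mean of at least 1 CPM (reads of a gene scaled to a common library total) over all libraries. Of 80 genes that matched the symbol rule, 76 met that level, out of 23119 genes in the count table. Just inside the minimum lay Cox6b2 at 1.04 CPM and Cox7a1 at 1.14 CPM, and just outside it Cox8b at 0.954 CPM. Cox7b2 at 0.326 CPM, Cox8c at 0.0103 CPM and Sdhaf1, which had no counts, were left out as well. The symbol rule brought in 8 complex I assembly factors (Ndufaf1 to Ndufaf8) and 3 complex II assembly factors (Sdhaf2 to Sdhaf4), which are not subunits. If the letters a to d were required after Nduf and Uqcr as well, 60 genes would remain.

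RNA was sequenced from bulk striatum of adult male C57BL/6J mice. Oxycodone mice gave themselves infusions of the opioid at 0.25 mg/kg each, in sessions of 4 h a day over 14 days, and saline mice were their yoked saline controls. The libraries fell into 4 groups, oxycodone dorsal striatum (n = 5), saline dorsal striatum (n = 5), oxycodone ventral striatum (n = 6) and saline ventral striatum (n = 6). Nothing in the labels says that each library came from a separate animal, and 4 of the dorsal libraries form 2 same-treatment pairs with equal numbers in their titles, so p values measure the spread between these libraries.

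The respiratory chain lies in the inner mitochondrial membrane. Complex I takes electrons from NADH and complex II takes them from succinate, complex III passes them on to cytochrome c, and complex IV hands them to oxygen. Complexes I, III and IV pump protons, and ATP synthase uses the gradient to make ATP. Complex II is built from nuclear-encoded proteins alone, whereas the other complexes combine nuclear-encoded subunits with a few encoded by mitochondrial DNA. Neurons spend much of this ATP on ion pumping, and inhibitors of complex II are known to damage the striatum in rodents.

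The dorsal libraries held 11314079 to 21921963 counts each, and the ventral ones 8408829 to 11000345. The ventral labels carry lanes and barcodes and the dorsal ones do not, so region and the way the libraries were made cannot be told apart. Mitochondrially encoded genes took 2.93 to 4.12% of counts in dorsal libraries and 5.98 to 9.25% in ventral ones. Medium spiny neuron markers, the defining genes of striatal tissue, were detected in every group, with none of the 12 at 0. Their summed level ran from 8631 to 10127 CPM in oxycodone dorsal libraries, from 9189 to 10145 in saline dorsal libraries, from 4353 to 9194 in oxycodone ventral libraries and from 492 to 5354 in saline ventral libraries. Saline ventral replicate 6 was the library at 492 CPM, and oxycodone ventral replicate 6 the one at 9194, and both stand apart from the other ventral libraries. In bulk tissue, fewer cells of a type and less RNA per cell cannot be told apart.

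The 76 genes together made up a larger share of the RNA in dorsal than in ventral libraries. Levels are CPM scaled by TMM factors, which correct library totals for differences in composition. Their summed level was 7371 ± 287 CPM in oxycodone dorsal libraries (SD, n = 5), 7580 ± 408 in saline dorsal libraries (SD, n = 5), 5873 ± 647 in oxycodone ventral libraries (SD, n = 6) and 5787 ± 274 in saline ventral libraries (SD, n = 6). The lowest dorsal library, at 6999 CPM, lay above the highest ventral library, at 6899 CPM, so the regions did not overlap in this sum, which the most abundant genes weigh most. The mean log2 CPM of the 76 genes, which weighs each gene alike, ran from 5.62 to 5.89 over dorsal and from 5.25 to 5.65 over ventral libraries, and there the regions overlapped. The oxycodone and saline libraries of each region overlapped. The 13 subunits encoded by mitochondrial DNA ran the other way in their sum, with summed levels of 29329 to 41946 CPM over the dorsal libraries and 58978 to 98375 CPM over the ventral ones. Their mean log2 CPM did not, at 6.76 to 7.74 over dorsal (median 7.25) and 6.99 to 7.72 over ventral libraries (median 7.19), which overlapped.

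**Figure D1:**
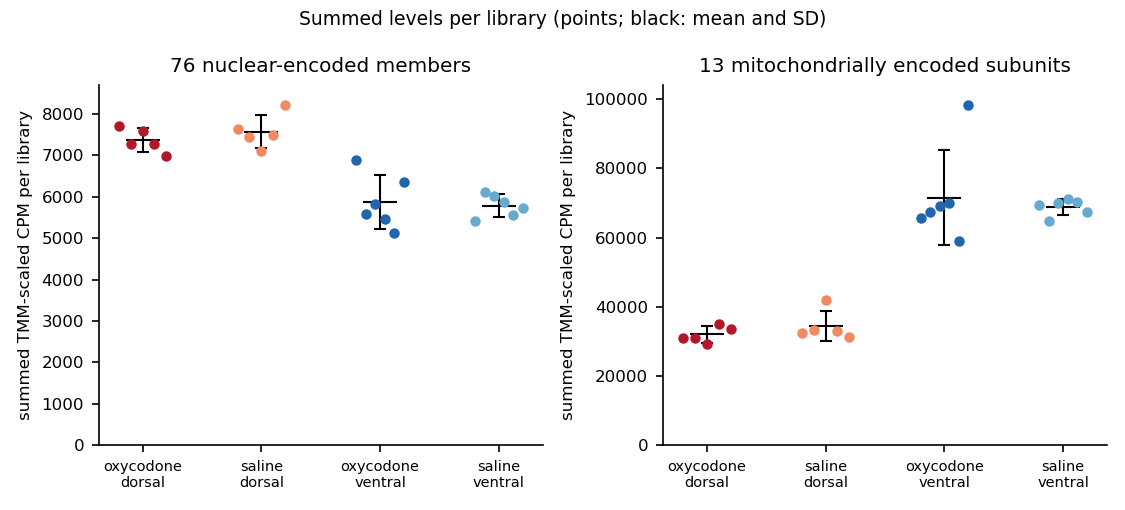
Summed TMM-scaled CPM per library (vertical axes) of the 76 nuclear-encoded genes (left) and of the 13 mitochondrially encoded subunits (right) in the 4 groups. Points are libraries and black marks give the mean and SD; dorsal libraries lie above ventral ones on the left, at 6999 CPM and more against 6899 CPM and less, and below them on the right.

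Compared per kilobase of merged annotated exons, the most abundant genes all belonged to complex IV. Cox6a1, the widely expressed form of a regulatory subunit, averaged 350.0 CPM per kilobase over all libraries, Cox8a 336, Cox6b1 282 and Cox4i1 279. The isoforms typical of heart and skeletal muscle were low, with Cox6a2 at 7.82 and Cox7a1 at 2.14 CPM per kilobase. Cox4i2, the lung-enriched counterpart of Cox4i1, stood at 4.09 CPM per kilobase, and Ndufa4l2, a hypoxia-inducible relative of Ndufa4, at 1.17 CPM per kilobase.

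Oxycodone against saline in ventral striatum gave no respiratory chain gene past the threshold, an adjusted p of 0.05 in edgeR's quasi-likelihood test over all genes. None of 14116 genes tested passed it there (0%). At an unadjusted p under 0.05 stood 2 of the 76 genes, against 9.13% of all genes tested. Their median log2 fold change, oxycodone over saline, was 0.04, against -0.00 over all genes tested, and 53 of 76 were above 0. DESeq2 called none either. All 12 medium spiny neuron markers were above 0 in the same comparison (median 0.61), as were all 8 oligodendrocyte markers (median 0.46). All 6 glutamatergic markers were below 0 (median -0.52), and none of these markers passed the threshold. In mean log2 CPM, saline ventral replicate 6 was the lowest ventral library for medium spiny neuron (4.28) and oligodendrocyte markers (4.85). It was the highest for glutamatergic markers (6.48). Oxycodone ventral replicate 6 was the highest ventral library for medium spiny neuron (8.81) and oligodendrocyte markers (7.53). The weight of these libraries in the marker differences was not tested. The part of the markers in the lean of the 76 genes was not tested either.

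The 2 genes with the lowest p in ventral striatum differed by less than 1.2-fold. Ndufaf3, a complex I assembly factor, ranged from 18.9 to 26.5 CPM in oxycodone libraries (median 22.3) and from 23.9 to 27.9 CPM in saline libraries (median 27.1). The groups overlapped, and the log2 fold change was -0.20 ± 0.09 (SE; unadjusted p = 0.036, adjusted p = 0.52 in edgeR). Cox7c, a small complex IV subunit, ranged from 35.5 to 47.5 CPM in oxycodone libraries (median 40.5) and from 33.4 to 40.8 CPM in saline libraries (median 35.6). The groups overlapped here too, with a log2 fold change of 0.19 ± 0.08 (SE; unadjusted p = 0.046, adjusted p = 0.53 in edgeR). The next in order were the tissue-restricted complex IV isoforms Cox4i2, at 2.80 ± 0.80 CPM in oxycodone and 2.10 ± 0.45 CPM in saline libraries, and Cox6a2, at 5.90 ± 0.77 CPM in oxycodone and 5.03 ± 0.68 CPM in saline libraries (SD, n = 6 each).

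In dorsal striatum, oxycodone against saline called 30 of 14595 genes (0.206%), and none of them was a respiratory chain gene in edgeR or in DESeq2. At an unadjusted p under 0.05 stood 2 of the 76, against 5.65% of all genes tested. The median log2 fold change was -0.05, against -0.01 over all genes, and 24 of 76 were above 0. All 8 complex III genes were below 0, by at most 0.19 on the log2 scale, and none passed the threshold. The same lean was seen in some sets outside these genes, with 0 of 13 mitochondrially encoded subunits (median -0.20) and 2 of 17 ATP synthase genes (median -0.09) above 0, none past the threshold. Cytosolic ribosomal protein genes leaned the other way, with 80 of 94 above 0 (median 0.07). Within the 76, so did the complex I assembly factors, with 5 of 8 above 0 (median 0.06). All 5 blood markers were above 0 in the same comparison (median 0.83, 1 past the threshold), with summed levels of 593 to 1780.1 CPM in oxycodone and 409.6 to 629 CPM in saline libraries, and their part in the result was not tested.

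Uqcrc2, a core protein of complex III, had the lowest p in dorsal striatum. It stood at 164, 172, 168, 159 and 164 CPM in oxycodone libraries and at 197, 181, 175, 187 and 201 CPM in saline libraries. All 5 oxycodone libraries lay below all 5 saline ones, with a log2 fold change of -0.19 ± 0.08 (SE; unadjusted p = 0.019, adjusted p = 0.70 in edgeR), which does not pass. An exon of Uqcrc2 overlaps Pdzd9 on the other strand over 504 bases, and the strand setting of the counting is not stated. Ndufb4, an accessory subunit of complex I, stood at 48.0, 40.7, 43.9, 52.8 and 45.4 CPM in oxycodone libraries and at 68.1, 54.5, 60.2, 49.7 and 46.1 CPM in saline libraries. These values overlapped, and the log2 fold change was -0.27 ± 0.12 (SE; unadjusted p = 0.036, adjusted p = 0.83 in edgeR). Ndufv3 followed at 73.0 ± 7.04 CPM in oxycodone and 83.6 ± 4.24 CPM in saline libraries, and Ndufv2, an iron-sulfur subunit of the NADH-oxidising module, at 129 ± 15.6 CPM in oxycodone and 145 ± 14.2 CPM in saline libraries (SD, n = 5 each).

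The intervals show what size of difference the data leave room for. In ventral striatum the 95% interval of the oxycodone difference lay wholly within 1.5-fold either way for 71 of 76 genes, and in dorsal striatum for 64. The 5 ventral exceptions were Cox4i2, Cox6b2, Ndufa4l2, Ndufaf8 and Sdhaf3. The 12 dorsal exceptions were those 5 and Cox6a2, Cox7a1, Ndufab1, Ndufaf1, Ndufaf2, Sdhaf2 and Sdhaf4. Cox7a1 is one of the lowest genes, with 1 dorsal library at 0 counts, and its dorsal interval ran from -2.50 to 0.82.

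**Figure D2:**
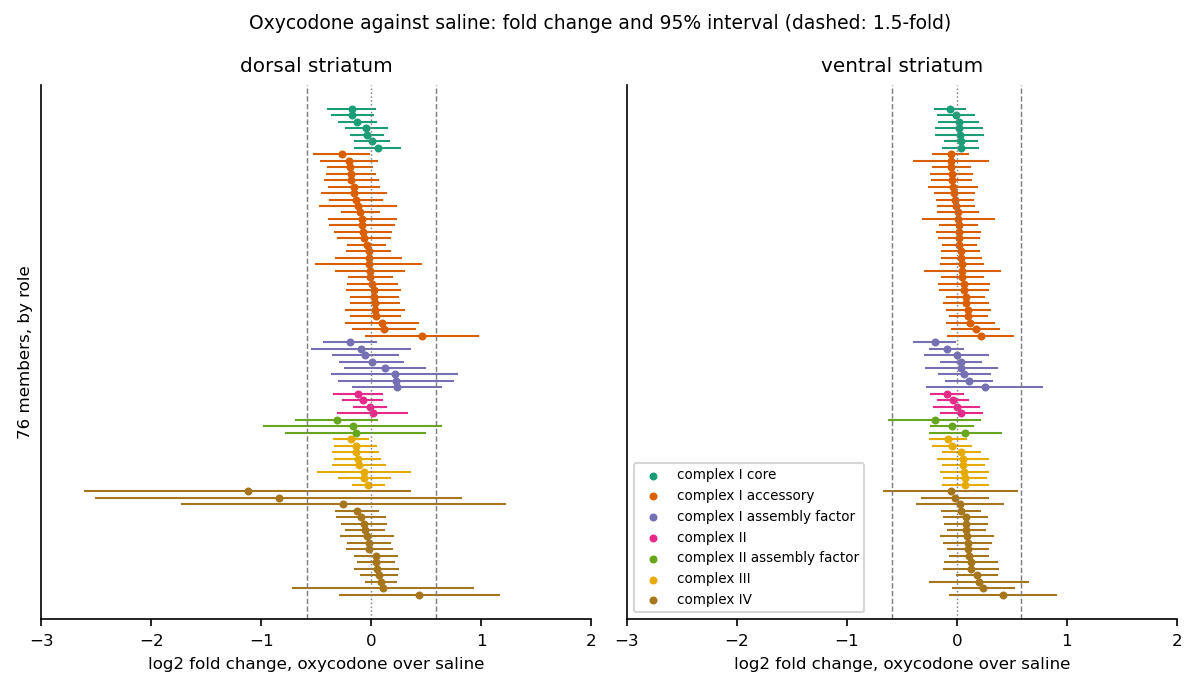
Log2 fold change, oxycodone over saline (horizontal axis), of the 76 genes in dorsal (left) and ventral (right) striatum, ordered by role, with 95% intervals from edgeR. Dashed lines mark 1.5-fold; 64 intervals in dorsal and 71 in ventral striatum lie between them, and no gene passed the threshold.

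The difference in oxycodone effect between the regions was tested as an interaction over all 22 libraries. None of 14938 genes passed (0%), in edgeR or, for these 76, in DESeq2. The power over all genes was limited, as the interaction fit recovered 16 of 100 genes changed 1.5-fold in simulated data and 57 of 100 changed 2-fold. The changed genes were drawn from all genes above 1 CPM, so these recoveries are not specific to the 76. The median half-width of the 95% interval was 0.31 for the 76 genes and 0.47 for all genes tested. An unadjusted p under 0.05 was reached by 1 of the 76, against 4.51% of all genes tested. That gene was Ndufb4, with an interaction of -0.43 ± 0.16 on the log2 scale (SE; unadjusted p = 0.011, adjusted p = 0.98 in edgeR). Next came Ndufa12, Cox7c and Ndufa3, at interactions of -0.32, -0.27 and -0.20.

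Most of these genes differed between dorsal and ventral striatum, and more of them were higher in dorsal. In oxycodone mice 36 were higher and 12 lower in dorsal striatum (47.4% and 15.8%), against 23.5% and 23.7% of all 14375 genes tested. In saline mice 43 were higher and 10 lower (56.6% and 13.2%), against 23.6% and 22.3% of all 14433 genes tested. The median log2 fold change, dorsal over ventral, was 0.23 in oxycodone and 0.35 in saline mice, and -0.01 over all genes in both. With the trend of the differences with gene length taken out as an offset, the medians were 0.13 in oxycodone and 0.19 in saline mice. Over all genes they were then -0.0023 in oxycodone and -0.0096 in saline mice. Under that offset 29 respiratory chain genes were higher and 15 lower in oxycodone mice, and 29 higher and 14 lower in saline mice. The share of all genes called under that offset is not given here, so these counts have no background to be read against. The 2 comparisons share no library. The same 35 genes were higher in both, which is 97.2% of those higher in oxycodone mice and 81.4% of those higher in saline mice. The same 10 genes were lower in both, and none was higher in one comparison and lower in the other. Pearson's r between the 2 region differences was 0.95 across the respiratory chain genes. It was 0.875 across all 14208 genes tested in both, so the likeness of the 2 comparisons is not particular to the respiratory chain. Without both sixth ventral libraries, 37 genes were higher and 11 lower in oxycodone mice, and 43 higher and 10 lower in saline mice.

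**Figure D3:**
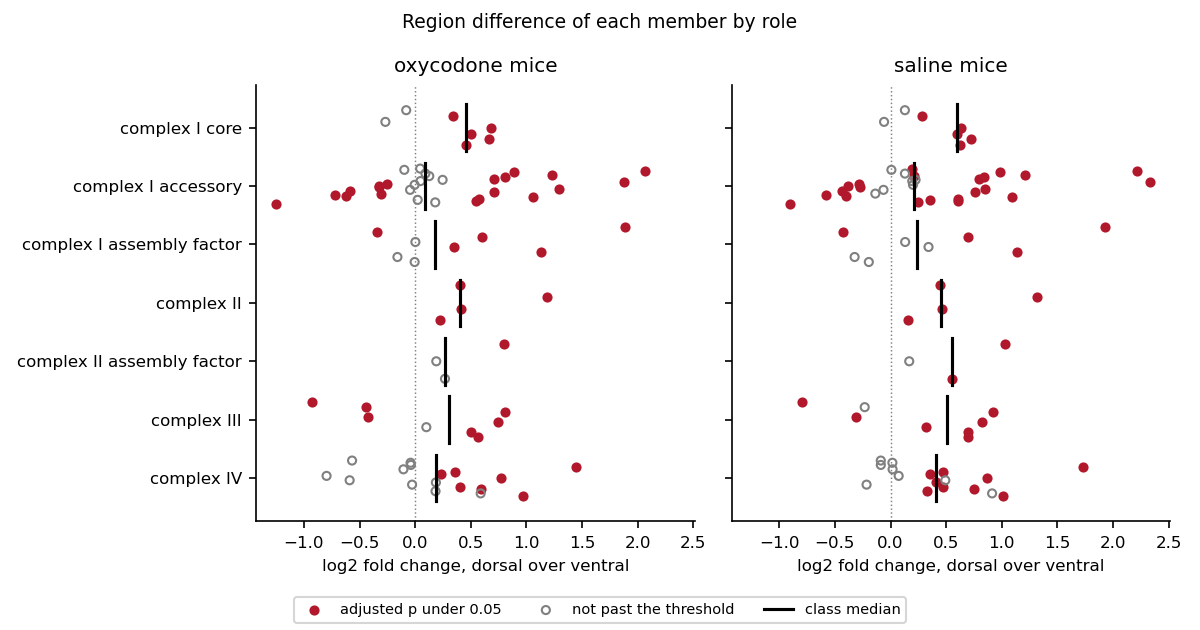
Log2 fold change, dorsal over ventral (horizontal axis), of each gene by role, in oxycodone (left) and saline (right) mice. Filled points passed an adjusted p of 0.05 in edgeR and bars give class medians; complex II lies wholly to the right of 0, from 0.23 to 1.19 in oxycodone and from 0.16 to 1.31 in saline mice.

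The core of complex I, the conserved subunits that carry the flavin and the iron-sulfur clusters, was higher in dorsal striatum for 5 of 7 genes in both treatments. None was lower. Ndufs7, which carries the last iron-sulfur cluster before ubiquinone, stood at 108, 99.0, 116, 87.3 and 86.3 CPM in dorsal and from 55.3 to 70.9 CPM in ventral libraries of oxycodone mice (median 58.3). Saline mice had levels of 104, 90.5, 85.0, 98.2 and 100.2 CPM in dorsal and from 53.5 to 68.3 CPM in ventral libraries (median 61.5). No dorsal library overlapped a ventral one, and the log2 fold changes were 0.68 ± 0.10 in oxycodone and 0.63 ± 0.08 in saline mice (SE; adjusted p = 3.3e-05 and 2.2e-05 in edgeR). Ndufs1, the largest subunit, was higher by 0.45 ± 0.09 in oxycodone and 0.63 ± 0.08 in saline mice (SE; adjusted p = 0.00052 and 2.2e-05 in edgeR). Ndufv1, which binds NADH, was higher by 0.34 ± 0.07 in oxycodone and 0.28 ± 0.07 in saline mice (SE; adjusted p = 0.00068 and 0.0050 in edgeR). Ndufs8 and Ndufv2 did not pass, at -0.27 and -0.08 in oxycodone and -0.06 and 0.13 in saline mice.

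The accessory subunits of complex I, which surround the core and take no direct part in electron transfer, went both ways. In oxycodone mice 11 of 29 were higher and 8 lower in dorsal striatum, and in saline mice 15 were higher and 7 lower. The largest difference of all 76 genes was here in each treatment, that of Ndufs5 in oxycodone and of Ndufb4 in saline mice. Ndufb4 stood at 48.0, 40.7, 43.9, 52.8 and 45.4 CPM in dorsal and from 9.80 to 14.0 CPM in ventral libraries of oxycodone mice (median 12.4). Saline mice had levels of 68.1, 54.5, 60.2, 49.7 and 46.1 CPM in dorsal and from 10.2 to 12.1 CPM in ventral libraries (median 10.8). The regions were far apart, with log2 fold changes of 1.88 ± 0.11 in oxycodone and 2.33 ± 0.12 in saline mice (SE; adjusted p = 3.8e-09 and 5.9e-09 in edgeR). Ndufs5 stood at 29.1, 29.4, 36.2, 39.8 and 26.9 CPM in dorsal and from 5.68 to 10.8 CPM in ventral libraries of oxycodone mice (median 7.28). The saline mice gave 29.0, 31.4, 45.0, 33.0 and 32.4 CPM in dorsal and from 5.97 to 9.04 CPM in ventral libraries (median 6.93). Here too no library overlapped, with log2 fold changes of 2.07 ± 0.16 in oxycodone and 2.21 ± 0.15 in saline mice (SE; adjusted p = 5.9e-08 and 7.5e-08 in edgeR). Ndufs4, whose loss causes Leigh syndrome in people and a model of it in mice, was higher by 0.89 ± 0.10 in oxycodone and 0.98 ± 0.12 in saline mice (SE; adjusted p = 3.5e-06 and 1.5e-05 in edgeR).

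The accessory genes lower in dorsal striatum were led by Ndufa1, an X-linked gene needed for complex I assembly. It stood at 29.3, 24.4, 24.8, 27.3 and 21.4 CPM in dorsal and from 47.1 to 83.4 CPM in ventral libraries of oxycodone mice (median 53.3). In saline mice it stood at 24.8, 33.4, 17.0, 29.7 and 33.4 CPM in dorsal and from 43.2 to 59.5 CPM in ventral libraries (median 52.6). Each dorsal library lay below each ventral one, with log2 fold changes of -1.25 ± 0.15 in oxycodone and -0.90 ± 0.16 in saline mice (SE; adjusted p = 5.2e-06 and 0.00033 in edgeR). Ndufa5 was lower too, at log2 fold changes of -0.72 ± 0.13 in oxycodone and -0.58 ± 0.11 in saline mice (SE; adjusted p = 0.00029 and 0.00049 in edgeR). Ndufa8, Ndufa3, Ndufb11, Ndufb10 and Ndufb3 were also lower in both treatments, and Ndufa6 passed in oxycodone mice, at -0.31, and did not in saline mice, at -0.14, while the interaction did not pass (-0.15; adjusted p = 0.98 in edgeR).

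Of the 8 complex I assembly factors, which help to build the complex and then leave it, 4 were higher and 1 lower in oxycodone mice and 3 higher and 1 lower in saline mice. Ndufaf8 stood at 10.7, 6.26, 11.8, 10.8 and 10.1 CPM in dorsal and from 1.94 to 3.54 CPM in ventral libraries of oxycodone mice (median 2.54). Saline mice had levels of 10.4, 8.17, 7.69, 10.1 and 6.07 CPM in dorsal and from 1.08 to 3.11 CPM in ventral libraries (median 2.13). The regions did not overlap, with log2 fold changes of 1.89 ± 0.22 in oxycodone and 1.92 ± 0.27 in saline mice (SE; adjusted p = 3.9e-06 and 5.4e-05 in edgeR). Its counts were low, at 10 in the library with the fewest. Ndufaf3 was higher by 1.13 ± 0.11 in oxycodone and 1.13 ± 0.10 in saline mice (SE; adjusted p = 4.7e-07 and 5.9e-07 in edgeR). Ndufaf7, a methyltransferase, was lower, at log2 fold changes of -0.34 in oxycodone and -0.43 in saline mice, although its dorsal and ventral libraries overlapped.

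Complex II was higher in dorsal striatum for all 4 subunits in both treatments. Sdhc, a membrane anchor of the complex, stood at 87.0, 72.9, 69.8, 67.8 and 57.9 CPM in dorsal and from 27.3 to 37.6 CPM in ventral libraries of oxycodone mice (median 29.6). The saline mice gave 77.5, 71.6, 86.3, 73.3 and 76.8 CPM in dorsal and from 24.7 to 36.3 CPM in ventral libraries (median 30.9). The lowest dorsal library exceeded the highest ventral one in both, with log2 fold changes of 1.19 ± 0.11 in oxycodone and 1.31 ± 0.10 in saline mice (SE; adjusted p = 4.1e-07 and 1.7e-07 in edgeR). Sdhb, which carries the iron-sulfur clusters, was higher by 0.41 ± 0.07 in oxycodone and 0.46 ± 0.08 in saline mice (SE; adjusted p = 0.00029 and 0.00027 in edgeR). Sdha, the flavoprotein that oxidises succinate and the most abundant of the 4 in CPM per kilobase, differed least, by 0.23 ± 0.08 in oxycodone and 0.16 ± 0.06 in saline mice (SE; adjusted p = 0.029 and 0.044 in edgeR). It stood at 445, 374, 437, 447 and 406 CPM in dorsal and from 309 to 402 CPM in ventral libraries of oxycodone mice (median 355), which overlapped. Saline mice had 410.5, 415, 421, 419.8 and 458 CPM in dorsal and 347 to 400.2 CPM in ventral libraries (median 381), which did not overlap. Among the assembly factors, Sdhaf4 was higher in both treatments, by 0.80 ± 0.21 in oxycodone and 1.03 ± 0.31 in saline mice (SE; adjusted p = 0.0046 and 0.014 in edgeR), and Sdhaf2 in saline mice. The Sdhaf4 value in saline mice leans on dorsal replicate 1, at 19.3 CPM against 5.89 to 7.62 CPM in the other 4, and was 0.58 without it, still past the threshold.

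**Figure D4:**
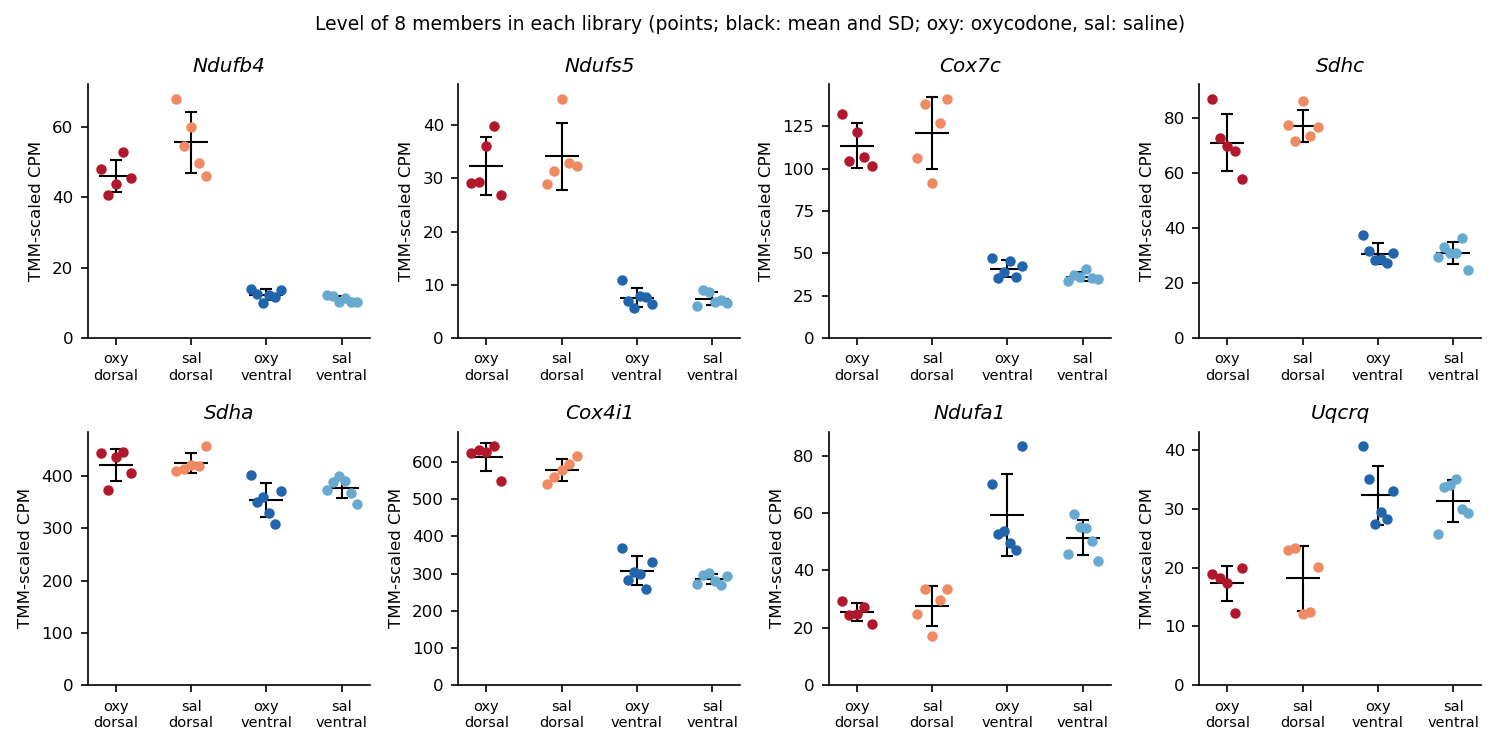
TMM-scaled CPM (vertical axes) of 8 genes in every library of the 4 groups, with the mean and SD in black. Ndufb4, Ndufs5, Cox7c, Sdhc and Cox4i1 lie higher in all dorsal libraries than in any ventral one, Sdha differs by less, and Ndufa1 and Uqcrq lie lower in dorsal libraries.

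Complex III was split. In oxycodone mice 4 of 8 genes were higher and 3 lower in dorsal striatum, and in saline mice 5 were higher and 2 lower. Uqcrc1, a core protein, stood at 325, 295, 321, 315 and 319 CPM in dorsal and from 168 to 218 CPM in ventral libraries of oxycodone mice (median 180.0). In saline mice it stood at 312, 329.8, 323, 305 and 333 CPM in dorsal and from 154 to 199 CPM in ventral libraries (median 183). The regions did not overlap, with log2 fold changes of 0.74 ± 0.08 in oxycodone and 0.82 ± 0.07 in saline mice (SE; adjusted p = 8.7e-07 and 5.8e-07 in edgeR). Its partner core protein Uqcrc2 was lower in dorsal striatum, at log2 fold changes of -0.42 ± 0.08 in oxycodone and -0.31 ± 0.06 in saline mice (SE; adjusted p = 0.00057 and 0.0011 in edgeR). Uqcrfs1, the Rieske iron-sulfur protein, was higher by 0.81 ± 0.09 in oxycodone and 0.92 ± 0.09 in saline mice (SE; adjusted p = 2.6e-06 and 1.3e-06 in edgeR). Uqcrq, a small subunit next to cytochrome b, stood at 18.9, 18.2, 17.4, 12.3 and 19.9 CPM in dorsal and from 27.5 to 40.7 CPM in ventral libraries of oxycodone mice (median 31.3). Saline mice had levels of 23.0, 23.4, 12.1, 12.5 and 20.1 CPM in dorsal and from 25.7 to 35.2 CPM in ventral libraries (median 31.9). It was lower in dorsal striatum without overlap, at log2 fold changes of -0.92 ± 0.14 in oxycodone and -0.80 ± 0.18 in saline mice (SE; adjusted p = 5.0e-05 and 0.0025 in edgeR). Uqcrh, which helps cytochrome c bind, passed in oxycodone mice, at -0.44, and did not in saline mice, at -0.23, while the interaction did not pass (-0.19; adjusted p = 0.98 in edgeR).

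In complex IV, 7 of 17 genes were higher in oxycodone mice and 9 in saline mice, and none was lower in either. Cox4i1, the form of the largest nuclear-encoded subunit found in most tissues, stood at 623, 632, 627, 643 and 549 CPM in dorsal and from 259 to 369 CPM in ventral libraries of oxycodone mice (median 303). The saline mice gave 540.1, 559.8, 580.2, 596 and 617 CPM in dorsal and from 268 to 302 CPM in ventral libraries (median 287). No library overlapped, with log2 fold changes of 0.97 ± 0.09 in oxycodone and 1.01 ± 0.06 in saline mice (SE; adjusted p = 3.2e-07 and 3.0e-08 in edgeR). Cox7c stood at 133, 104, 122, 107 and 101 CPM in dorsal and from 35.5 to 47.5 CPM in ventral libraries of oxycodone mice (median 40.5). In saline mice it stood at 106, 138, 91.6, 127 and 141 CPM in dorsal and from 33.4 to 40.8 CPM in ventral libraries (median 35.6). This was the largest difference in the complex, with log2 fold changes of 1.45 ± 0.10 in oxycodone and 1.73 ± 0.11 in saline mice (SE; adjusted p = 1.8e-08 and 5.0e-08 in edgeR).

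The other complex IV genes differed less. Cox6a1 was higher by 0.40 in oxycodone and 0.47 in saline mice, Cox7a2 by 0.24 and 0.35, and Cox7a2l, which takes part in joining complexes III and IV, by 0.36 and 0.47. Cox5a, a subunit close to the catalytic core, passed in saline mice, at 0.33 ± 0.10 (SE; adjusted p = 0.012 in edgeR), and did not in oxycodone mice, at 0.18 ± 0.10 (SE; adjusted p = 0.13 in edgeR). The interaction of Cox5a did not pass (-0.13; adjusted p = 0.98 in edgeR). Cox8a stood at 207 ± 19.9 CPM in dorsal libraries (SD, n = 5) and 209 ± 31.5 CPM in ventral libraries (SD, n = 6) of oxycodone mice, with a 95% interval of the log2 fold change from -0.25 to 0.17. Ndufa4, long counted with complex I and now placed in complex IV, stood at 122 ± 8.27 CPM in dorsal libraries (SD, n = 5) and 123 ± 20 CPM in ventral libraries (SD, n = 6) of oxycodone mice, with an interval from -0.25 to 0.17. In saline mice the intervals ran from -0.35 to 0.17 for Cox8a and from -0.20 to 0.23 for Ndufa4. The restricted isoforms Cox4i2, Cox6a2, Cox7a1 and Ndufa4l2 did not pass in either treatment, and their intervals were wide, at -1.84 to 0.24 for Cox7a1 in oxycodone mice.

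Several of the genes with the largest differences have near-identical processed copies elsewhere in the genome, to which reads of either origin can map. Every 50-base word of each gene's annotated transcripts was looked up, on both strands, in the transcripts of all other genes that do not overlap it. At least 1 word was shared by 27 of the 76 genes, and 7 genes shared 20% or more, which were Uqcrb, Ndufb4, Ndufs3, Ndufa12, Cox7c, Cox5b and Ndufs5. The coding sequence of Ndufb4 (387 bases, without the stop codon) differs at 0 bases from that of its copy Ndufb4c, that of Ndufs5 (318 bases) at 2 bases from BC002163, and that of Cox7c (189 bases) at 2 bases from Gm10012. The first 60 coding bases of each gene and its copy are shown, from GENCODE M21, because a read from them can hardly be assigned to its source; capitals mark bases that differ within a pair.
Ndufb4 (chromosome 16, 37647170 to 37654453, minus strand, GRCm38): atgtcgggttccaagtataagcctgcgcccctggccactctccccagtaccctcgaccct
Ndufb4c (chromosome 15, 73809507 to 73809896, minus strand): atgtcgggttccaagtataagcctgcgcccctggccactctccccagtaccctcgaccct
Ndufs5 (chromosome 4, 123712710 to 123718202, minus strand): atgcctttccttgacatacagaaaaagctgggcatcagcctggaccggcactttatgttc
BC002163 (chromosome 16, 42955631 to 42955949, plus strand): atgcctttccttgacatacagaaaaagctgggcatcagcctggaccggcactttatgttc
Cox7c (chromosome 13, 86044816 to 86046904, minus strand): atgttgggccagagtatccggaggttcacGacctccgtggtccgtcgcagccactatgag
Gm10012 (chromosome 17, 25901856 to 25902227, plus strand): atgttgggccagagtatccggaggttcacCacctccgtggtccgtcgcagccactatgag

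How reads that map to several places were counted is not given in the sources used here. The copies Ndufb4c, BC002163 and Gm10012 were not among the genes counted, so their own levels cannot be compared. Among the 27 genes that share a word, 16 were higher and 4 lower in dorsal striatum of oxycodone mice and 20 higher and 3 lower in saline mice, with median log2 fold changes of 0.50 and 0.59. Among the 49 that share none, 20 were higher and 8 lower in oxycodone mice and 23 higher and 7 lower in saline mice, with medians of 0.18 and 0.21. Across the 76 genes, Spearman's rho between the share of shared words and the log2 fold change was 0.23 in oxycodone and 0.25 in saline mice, given as a description. Among the genes higher in dorsal striatum, Ndufaf8 and Cox4i1 share no word with another gene, and Sdhc shares 0.0915% of its words. The part of shared sequence in these differences was not tested.

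**Figure D5:**
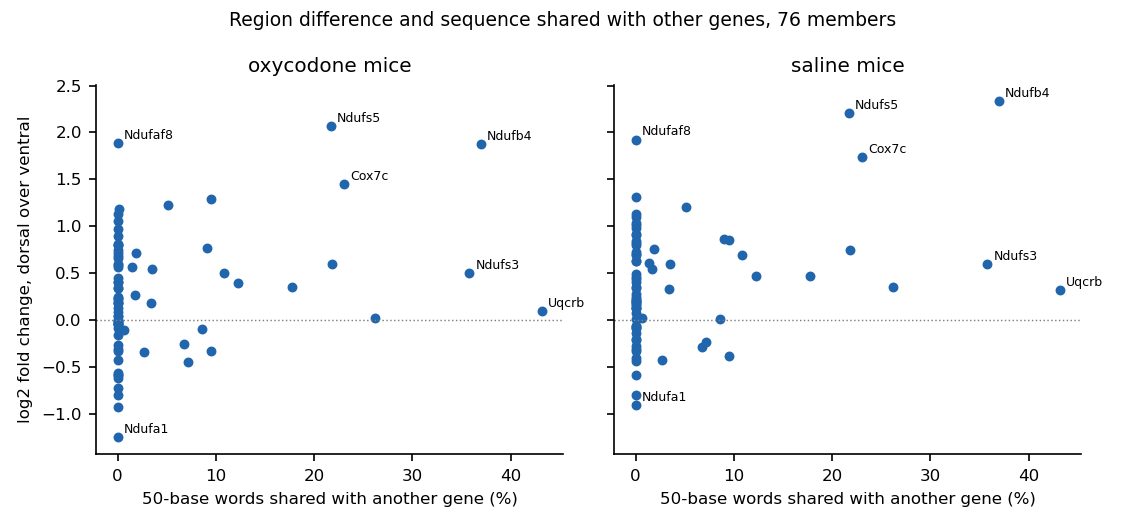
Log2 fold change, dorsal over ventral (vertical axis), against the share of a gene's 50-base words found in another gene (horizontal axis, %) for the 76 genes, in oxycodone (left) and saline (right) mice. Ndufb4, Ndufs5 and Cox7c share more than 20% and lie among the highest points, while Ndufaf8 shares none and Uqcrb and Ndufs3 share more than 35% with smaller differences.

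Promoters of these genes are known for sites of the nuclear respiratory factors, which switch on respiratory genes together. Of the 76 genes, 62 matched a RefSeq promoter on GRCm38.p6, a window from 250 bases before to 50 bases after the start. On either strand, the letters GCGCATGC of the NRF1 motif were found in 9 of 62 (14.5%), against 3.05% of 27025 gene symbols with a promoter. The ETS letters CCGGAAG, read by GABP (also called NRF2), were found in 15 of 62 (24.2%) against 9.93%, the YY1 letters AAGATGG in 9 (14.5%) against 7.28%, and the SP1 letters GGGCGG in 31 (50%) against 38.2%. The NRF1 letters stood in 5 of 28 promoters of genes higher in dorsal striatum in both treatments and in 1 of 8 of genes lower in both. The 120 bases before the start are shown for Sdhb, which was higher, and for Ndufa8, which was lower, because both hold the NRF1 letters; capitals mark the NRF1 motif (GCATGCGC on this strand) and an SP1 motif (CCGCCC on this strand).
Sdhb (chr4:140961151-140961270, plus strand, GRCm38.p6): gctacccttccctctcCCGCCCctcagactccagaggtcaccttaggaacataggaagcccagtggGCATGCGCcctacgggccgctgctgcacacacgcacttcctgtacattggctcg
Ndufa8 (chr2:36049339-36049458, minus strand, GRCm38.p6): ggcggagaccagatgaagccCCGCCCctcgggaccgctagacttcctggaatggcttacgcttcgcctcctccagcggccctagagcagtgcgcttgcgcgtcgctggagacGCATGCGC

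The regulators themselves differed by gene. Ppargc1a, the coactivator PGC-1alpha that drives mitochondrial biogenesis, was lower in dorsal striatum, at log2 fold changes of -1.12 ± 0.11 in oxycodone and -1.05 ± 0.08 in saline mice (SE; adjusted p = 7.5e-07 and 3.0e-07 in edgeR). Its partner Esrra, a nuclear receptor, was higher, by 0.81 ± 0.13 in oxycodone and 1.20 ± 0.18 in saline mice (SE; adjusted p = 0.00011 and 9.6e-05 in edgeR). Gabpa was lower, at log2 fold changes of -0.65 ± 0.13 in oxycodone and -0.44 ± 0.12 in saline mice (SE; adjusted p = 0.00052 and 0.0065 in edgeR). Nrf1 stood at 0.10 and 0.21 and Tfam, which maintains mitochondrial DNA, at -0.08 and -0.04, and neither passed. Of the 15 regulators listed, 5 were higher and 5 lower in oxycodone mice and 5 higher and 4 lower in saline mice. The shares of all genes tested were 23.5% higher and 23.7% lower in oxycodone mice, and 23.6% and 22.3% in saline mice. None of the regulators passed for oxycodone against saline in either region. The nearest were Gabpa at 0.29 ± 0.09 (SE; adjusted p = 0.40 in edgeR) and Esrra at 0.29 ± 0.12 (SE; adjusted p = 0.52 in edgeR), both in ventral striatum.

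Other parts of mitochondrial energy metabolism were set beside them. Among all genes tested, 23.5% were higher and 23.7% lower in dorsal striatum of oxycodone mice, and 23.6% and 22.3% in saline mice. Of 17 genes of ATP synthase, 8 were higher and 5 lower in dorsal striatum of oxycodone mice and 11 higher and 3 lower in saline mice, with medians of 0.28 and 0.47. Atp5l, a small subunit of its membrane part, averaged 32.2 CPM in dorsal and 3.09 CPM in ventral libraries of oxycodone mice. Of 17 tricarboxylic acid cycle genes, 7 were higher and 2 lower in each treatment, among them Ogdh, higher by 0.61 and 0.70. Of 28 tested genes for cytochrome c and complex assembly, 10 were higher and 2 lower in oxycodone mice and 9 and 2 in saline mice. Other protein-coding genes with under 1000 exonic bases, a size class that holds many small subunits, had median log2 fold changes of 0.16 in oxycodone and 0.15 in saline mice. Those of tested cytosolic ribosomal protein genes were 0.22 and 0.17, and those of mitochondrial ones 0.08 and 0.13.

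The subunits encoded by mitochondrial DNA, most of them partners of these genes in complexes I, III and IV, differed in both directions. Of 12 tested in oxycodone mice, 4 were higher and 8 lower in dorsal striatum, with a median of -1.07, and of 11 tested in saline mice, 3 were higher and 7 lower, with a median of -1.40. Mt-Cytb, of complex III, averaged 1491 CPM in dorsal and 12355 CPM in ventral libraries of oxycodone mice. Mt-Co3, of complex IV, averaged 45.1 CPM in dorsal and 3.15 CPM in ventral libraries of oxycodone mice. Mt-Co1 of the same complex averaged 24909 CPM in dorsal and 35436 CPM in ventral libraries of oxycodone mice, far above mt-Co3 in each region. None of these passed for oxycodone against saline in either region. The treatment of reads that map to several places is not given, and its part in the levels of these subunits was not tested.

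Cell type markers were compared between regions too. Among all genes tested, 23.5% were higher and 23.7% lower in dorsal striatum of oxycodone mice, and 23.6% and 22.3% in saline mice. Of 8 oligodendrocyte markers, 6 were higher in dorsal striatum of oxycodone mice and 8 of saline mice, and none was lower, with medians of 0.89 and 1.42. Their summed level ran from 2931 to 4330 CPM in dorsal and 1254 to 3196 CPM in ventral libraries of oxycodone mice, and from 3033 to 4005 CPM in dorsal and 442 to 1801 CPM in ventral libraries of saline mice. Of 12 medium spiny neuron markers, 6 were higher in each treatment and none lower. Of 8 general neuronal markers, 2 were higher and 3 lower in each treatment (25% and 37.5%). Of 7 astrocyte markers 2 were higher in each treatment (28.6%), near the share of all genes. Of 8 microglia markers 7 were higher in oxycodone and 6 in saline mice, and no astrocyte or microglia marker was lower. Of 6 endothelial markers 3 were higher and 2 lower in oxycodone mice and 3 and 1 in saline mice. Of 10 pericyte and smooth muscle markers 6 were higher in oxycodone and 3 in saline mice, of 5 blood markers 2 and 1, and of 6 choroid plexus and ependyma markers 0 and 5, with none lower. All 6 of the last were above 0 in oxycodone mice (median 1.60). Their mean log2 CPM was 4.84 in oxycodone ventral replicate 6, where the median of that group was 1.29. The weight of that library in the count was not tested. Of 6 glutamatergic markers, which belong to projection neurons outside the striatum, none was higher and 3 were lower in each treatment. No marker of these lists was at 0 in any group. The part of cell composition in the differences of the respiratory chain genes was not tested.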

How the data were processed

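Bulk RNA-seq of 22 mouse striatum libraries was analysed from 1 deposited table of raw counts per Ensembl gene. Per the labels, libraries were stranded total RNA with ribosomal RNA removed. Per the submitters' processing notes, the authors' counts came from featureCounts after CASAVA 1.8.2 and STAR 2.3, and the notes list builds mm10, GRCm38 and mm9 without a role. Strand setting and the treatment of multi-mapping reads are not given in the sources used here.

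Symbols, positions and exonic lengths came from GENCODE M21 on GRCm38, which matched 22282 of 23119 identifiers. Each comparison was fitted on its own groups, and the interaction on all 22 libraries, with edgeR 4.0.16 in R 4.3.3 (filterByExpr, TMM scaling, robust quasi-likelihood test, two-sided, 95% intervals). P values were adjusted by Benjamini-Hochberg over all genes tested, with a threshold of 0.05, and all 76 genes were tested each time. The fits were tested on simulated data, with the changed genes drawn from all genes above 1 CPM. Of 100 genes changed 1.5-fold, the oxycodone fits recovered 53 in ventral and 47 in dorsal striatum, and of 100 changed 2-fold, 87 and 71. For dorsal against ventral the 1.5-fold recoveries were 47 in oxycodone and 36 in saline mice. DESeq2 1.42.0, other scalings and filters, a length offset and leaving out each library were alternatives. Within every group the libraries differed by more than sampling noise (lowest chi-square per degree of freedom of a pair 2.88). Such a difference cannot show whether 2 libraries came from 1 animal. Each library was counted as 1 sample.

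The genes, the gene lists and the tests were chosen with earlier results of these data known. Named genes were, per comparison and role, up to 2 with the largest rise and up to 2 with the largest fall past the threshold, or the 4 lowest unadjusted p where none passed, plus fixed genes such as Sdha, Cox4i1 and Ndufs1. Genes listed for a shared interval, sequence or promoter property, the further accessory and core genes of complex I (Ndufa6, Ndufa8, Ndufb3, Ndufb10, Ndufb11, Ndufs8), Cox6b1, mt-Cytb and mt-Co1 were named outside that rule, after their values were seen. The results of 1 gene were left out of the text.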

Additional observations from a re-analysis of the deposited data

Results flagged for a closer look

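Among 180 sets of values (a named gene or a role class in a group of 5 or 6 libraries), 12 had a highest or lowest library set apart from the rest by Dixon's criterion, where chance sets apart about 1 in 20. Oxycodone ventral replicate 1 was highest for Ndufa4, at 161 CPM against 102 to 123 in the others, and for the mean log2 CPM of the complex II assembly factors, at 3.08 against 2.62 to 2.74. Oxycodone dorsal replicate 5 was lowest for Cox4i1, at 549 CPM against 623 to 643, and oxycodone dorsal replicate 1 was highest for Uqcrfs1, at 109 CPM against 93.1 to 94.7.

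Among saline dorsal libraries, replicate 3 was highest for Ndufs5, at 45.0 CPM against 29.0 to 33.0, and lowest for Uqcrh, at 101 CPM against 144 to 153. Replicate 1 was highest for Sdhaf4, at 19.3 CPM against 5.89 to 7.62, replicate 5 highest for Sdha, at 458 CPM against 410.5 to 421, and replicate 2 lowest for Ndufs1, at 237 CPM against 297 to 304. Among saline ventral libraries, replicate 6 was highest for Cox8a, at 302 CPM against 172 to 213, and lowest for Ndufv3, at 61.8 CPM against 72.6 to 78.6. Saline ventral replicate 2 was highest for Uqcrfs1, at 66.8 CPM against 52.6 to 56.4.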

How the results depend on the processing

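Oxycodone called none of the 76 genes in either region under the alternatives run. Leaving out each library gave median log2 fold changes of -0.01 to 0.07 in ventral and -0.09 to -0.02 in dorsal striatum. Dorsal against ventral called 44 to 49 genes in oxycodone mice (33 to 39 higher, 9 to 13 lower, median 0.20 to 0.32) and 48 to 53 in saline mice (38 to 44 higher, 9 to 10 lower, median 0.31 to 0.39). Asking for a fold of at least 1.5 as well left 27 genes in oxycodone mice (22 higher, 5 lower) and 30 in saline mice (28 higher, 2 lower), since it removes smaller differences. With the length trend as an offset the median was 0.13 in oxycodone and 0.19 in saline mice (the cause was not tested). In saline mice it was 0.21 over the genes that share no word with another gene, an alternative chosen after seeing the data. Among named genes, 488 of 491 values kept direction and side of the threshold, 3 lost the call and none reversed. Those 3 were Sdhaf4 with the length offset in saline mice (0.79, adjusted p = 0.051), and Sdhaf4 (0.65, adjusted p = 0.064) and Uqcrh (-0.29, adjusted p = 0.13) in oxycodone mice, from dorsal libraries without the title suffix P. With the title number as a replicate block, dorsal against ventral called 45 genes in oxycodone mice, as without it on the same libraries, and 48 in saline mice against 50 without it. Dorsal and ventral libraries of equal number correlated at -0.08 to 0.31 in their deviations from the group means. Such correlations cannot show whether the 2 came from 1 animal, and the main fits treat them as unpaired. Depth limits the low genes, such as Cox7a1 and Ndufa4l2.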
